A study of Mus musculus with 6 samples.

Results

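Lysosomal genes were followed in haematopoietic stem cells (HSCs) of control mice and of mice with a conditional deletion of *Maea*, which encodes a RING-domain subunit of an E3 ubiquitin ligase complex. The 48 genes are those rows of the deposited expression table whose symbol equals a name on a fixed list of lysosomal genes, out of 46959 rows in all. They comprise 3 transcription factors of the MiT/TFE family, 8 lysosomal membrane and cholesterol export proteins, 10 proteases, 12 glycosidases, lipases and activator precursors, 7 genes of the V0 sector of V-ATPase with its accessory proteins, and 8 genes of its V1 sector. HSCs were sorted from bone marrow as lineage- Sca-1+ c-Kit+ CD150+ CD48- cells and their RNA was sequenced in 6 libraries, each from 2000 cells pooled from 2 mice. The 3 MaeaCsf1r-Cre libraries came from mice in which loxP-flanked *Maea* is deleted by a Cre under the *Csf1r* promoter, and the 3 control libraries from littermates whose alleles the labels do not give. The design text states an age of 8 weeks, and the methods state 7 to 12 weeks. The Cre line had been backcrossed onto C57BL/6 and is classically used for mononuclear phagocytes, so the deletion is not restricted to HSCs and the macrophages of the same marrow are targeted too.

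Lysosomes are the acidic compartment in which cells break down material delivered by endocytosis and autophagy. V-ATPase pumps protons into them, with a V1 sector that hydrolyses ATP on the cytosolic side and a V0 sector that carries protons across the membrane. The hydrolases need this acid pH, and the membrane proteins shield the cytosol from them and export their products. TFEB, TFE3 and MITF bind E-box motifs in the promoters of many lysosomal genes, and mTORC1, which sits on the lysosome when nutrients are ample, keeps them out of the nucleus by phosphorylation. HSCs are known to depend on autophagy and to hold many lysosomes while quiescent. RNA levels, the quantity measured here, tell nothing of where these factors were in the cell or how active the enzymes were.

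The E-boxes of these genes are shown first, since the MiT/TFE factors bind such motifs in the promoters of many lysosomal genes. RefSeq promoters (build GRCm38.p6, 250 bases before and 50 after each gene start) were found for 40 of the 48 genes. No entry was found for *Asah1*, *Atp6v1b2*, *Atp6v1c1*, *Atp6v1g1*, *Atp6v1h*, *Ctsb*, *Ctsh* and *Npc1*. The E-box core CACGTG, which reads the same on both strands, was present in 14 of the 40 genes (35%), against 8.09% of the 27025 genes with a promoter in the table and 12% of the 9118 of them that were tested below. The longer form TCACGTGA, which contains the core, was present in 7 of the 40 (17.5%), against 1.12% of all and 2.24% of the tested genes. *Lamp1*, which encodes one of the most abundant proteins of the lysosomal membrane, had 4 cores within the 61 bases before its start, at chr8:13158911-13159160 on the plus strand. Its upstream sequence is given with the cores in capitals.
Lamp1: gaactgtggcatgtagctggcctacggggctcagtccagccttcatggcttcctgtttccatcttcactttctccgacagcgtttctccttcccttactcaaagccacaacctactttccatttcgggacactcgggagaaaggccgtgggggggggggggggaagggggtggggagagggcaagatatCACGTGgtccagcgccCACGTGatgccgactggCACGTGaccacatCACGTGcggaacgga

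No core of *Lamp1* was part of the longer form. All matches to the longer form, which lie in other genes, are given next. Each is the core in capitals with 12 bases on either side, so the flanking t and a of the longer form can be read. They lie at chr2:164833749-164833778 and chr2:164833766-164833795 for *Ctsa* (plus strand), chr7:142387908-142387937 for *Ctsd* (minus), chr8:3500462-3500491 for *Mcoln1* (plus), chr8:105566050-105566079 for *Atp6v0d1* (minus), chr17:26676387-26676416 for *Atp6v0e* (plus), chr16:44139373-44139402 for *Atp6v1a* (minus), and chrX:134601215-134601244 and chrX:134601182-134601211 for *Gla* (minus).
Ctsa, upstream match: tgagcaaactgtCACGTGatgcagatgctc
Ctsa, downstream match: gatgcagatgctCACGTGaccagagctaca
Ctsd: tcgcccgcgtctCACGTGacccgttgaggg
Mcoln1: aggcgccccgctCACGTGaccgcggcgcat
Atp6v0d1: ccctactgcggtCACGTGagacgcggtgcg
Atp6v0e: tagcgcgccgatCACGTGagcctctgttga
Atp6v1a: ttttttttaaatCACGTGataggcttaacg
Gla, upstream match: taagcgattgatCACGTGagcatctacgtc
Gla, downstream match: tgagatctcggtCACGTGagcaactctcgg

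The core alone was also found in *Atp6v0b*, *Ctsl*, *Gaa*, *Glb1*, *Lgmn* and *Naglu*, and in none of the promoters of *Tfeb*, *Tfe3* and *Mitf*. A match is a run of letters and not a measured binding site.

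The values are CPM, reads scaled to a common library size. The steps between low values placed the reads behind the scaling at 32958000 to 39605000 in control and 44151000 to 60927000 in MaeaCsf1r-Cre libraries. At these depths 3 reads made 0.0492 to 0.091 CPM (counting error alone), and the lowest value of any of the 48 genes was 0.862 CPM (*Lgmn* in MaeaCsf1r-Cre replicate 2). *Maea* itself stood at 108, 116 and 123 CPM in control replicates 1, 2 and 3 and at 76.9, 88.6 and 101 CPM in MaeaCsf1r-Cre replicates 1, 2 and 3 (log2 fold change -0.39, standard error 0.13, limma adjusted p = 0.967). This value covers the whole gene and not the deleted part alone, so it does not show how complete the deletion was in these HSCs. Libraries with the same number deviated together from their group means, and the libraries numbered 1 stood apart: all 14 HSC genes examined (*Kit*, *Mecom*, *Hlf* and others) had their lowest value of the group in replicate 1 in both groups, as had 28.7% of the 12953 genes tested. The summed level of these 14 genes was 1344, 2091 and 1974 CPM in control and 954, 1425 and 1820 CPM in MaeaCsf1r-Cre replicates 1, 2 and 3. Marker genes of other lineages were also present, and 20 macrophage genes summed to 78.4 to 180 CPM in control and 40.8 to 147 CPM in MaeaCsf1r-Cre libraries. Of this sum *Slc40a1* alone (log2 fold change 0.12) gave 28.4 to 76.5 CPM in control and 27.2 to 70.9 CPM in MaeaCsf1r-Cre libraries. Over all 6 libraries the summed CPM was 196 to 537 for 8 erythroid genes, 284 to 1318 for 6 megakaryocyte genes, 76 to 309 for 12 neutrophil genes, 30.3 to 143 for 12 monocyte and dendritic cell genes, 13.9 to 55.4 for 8 B cell genes, 20 to 99.5 for 6 stromal and endothelial genes, 4.1 to 18.8 for 5 mast cell and basophil genes and 1.1 to 3.49 for 6 T and NK cell genes. Single genes gave much of some of these sums. *Klf1* alone gave 94 to 331 CPM of the erythroid sum, and *Flt3* 15.7 to 120 CPM of the monocyte and dendritic cell sum. No gene of these lists passed an adjusted p of 0.05 in limma. Results are therefore given with and without the libraries numbered 1 and those numbered 3 where these decide a value.

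All 48 genes reached 1 CPM in 3 or more libraries and so entered the test, and none passed the adjusted threshold between the groups. In limma's moderated test on log2(CPM + 1), 0 of 48 had a Benjamini-Hochberg adjusted p under 0.05, against 0.00772% of the genes tested (1 gene), and the smallest adjusted p was 0.967. At an unadjusted p under 0.05 the count was 0 of 48, against 3.99% of all genes. With the replicate number as a block, 0 of 48 passed again, against 0.00772% of all genes, and the smallest adjusted p was 0.279. The differences were small in size, as they were for most genes tested. The 95% interval of the fold change lay within 2-fold in either direction for 42 of the 48 genes and within 1.5-fold for 27 of them, or 38 with the replicate block. Of all 12953 genes tested, it lay within 2-fold for 10625 and within 1.5-fold for 5986, or 8313 with the block. The 6 genes with wider intervals were *Tfeb*, *Cd68*, *Ctsh*, *Ctsl*, *Ctss* and *Lgmn*, and for these a 2-fold difference was not excluded at this number of libraries.

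**Figure D1:**
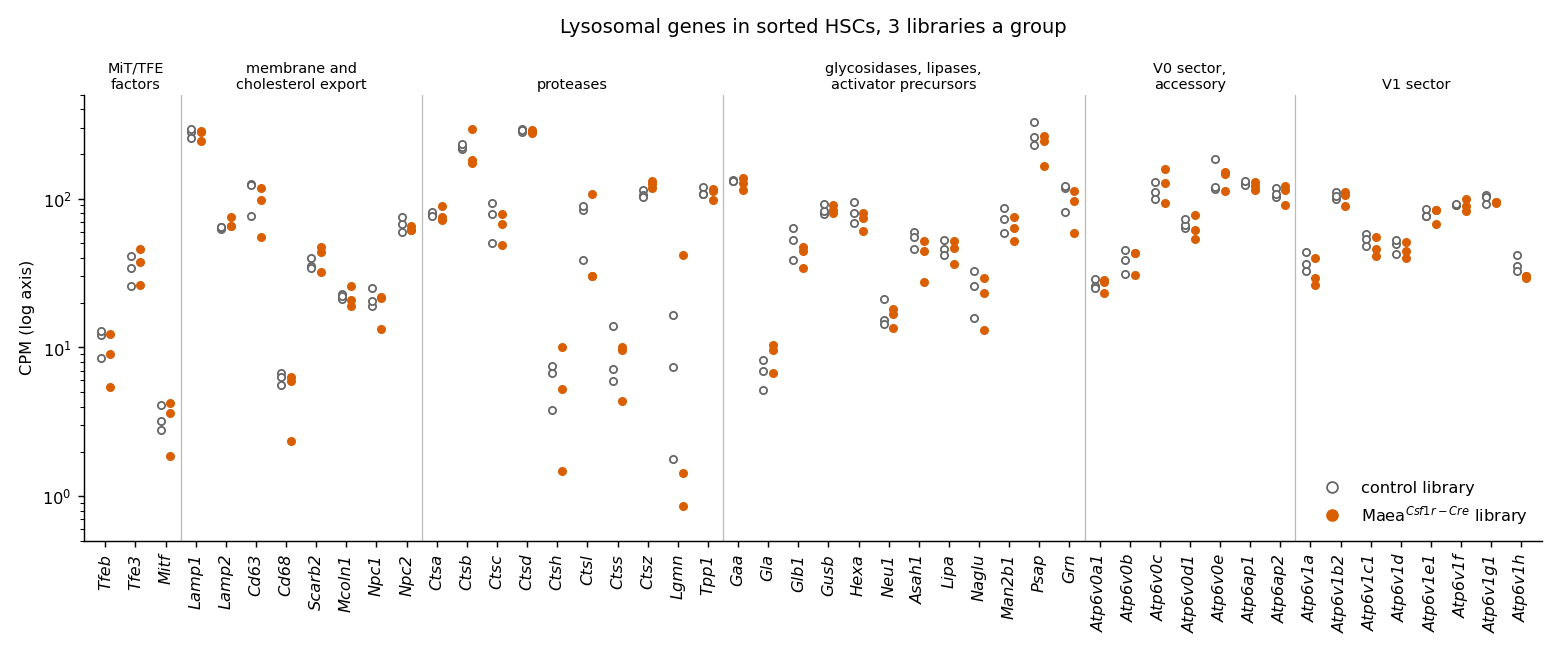
CPM (log axis) of the 48 lysosomal genes in each of the 3 control (open circles) and 3 MaeaCsf1r-Cre libraries (filled circles), ordered by role. The circles of the groups overlap for 45 genes, and the exceptions are *Lamp2* and *Ctsz* (filled circles higher) and *Atp6v1h* (filled circles lower); *Lgmn* has the widest spread, from 0.862 to 41.8 CPM.

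In direction, the genes leaned low in MaeaCsf1r-Cre HSCs. The group mean on the log scale was lower for 40 of 48 genes (83.3%), against 60.9% of all genes tested, and the median log2 fold change was -0.08, against -0.06 for all genes. By role the median was -0.08 for the MiT/TFE factors, -0.07 for the membrane proteins, -0.12 for the proteases, -0.18 for the glycosidases, lipases and activator precursors, -0.02 for the V0 sector and -0.09 for the V1 sector. Relative to all genes the lean was small, since 28 of the 48 genes lay below the median of all genes. Correction for transcript length, which also recentres the values, placed the median of the 48 genes at 0.02 and that of all genes at 0.03.

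The lean came from the libraries numbered 1 and 2. Between the libraries numbered 1, 39 genes were lower in MaeaCsf1r-Cre HSCs (53.1% of all genes were), with a median log2 difference of -0.16, against -0.03 for all genes. Between those numbered 2, 43 genes were lower (68.1% of all genes), with a median of -0.18 against -0.14. Between those numbered 3 the direction turned, and 15 genes were lower (48.7% of all genes) with a median of 0.13 against 0.01. Each of these is a comparison of single libraries with no replicate check. A lower value in all 3 pairs was found for 12 genes (25.0%), against 23.5% of all genes, and a higher value in all 3 pairs for 3 genes (6.25%: *Ctsz*, *Gla* and *Lamp2*), against 13.2%. The 12 were *Tfeb*, *Cd63*, *Ctsc*, *Ctsd*, *Asah1*, *Glb1*, *Grn*, *Hexa*, *Man2b1*, *Atp6ap1*, *Atp6v1c1* and *Atp6v1h*.

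**Figure D2:**
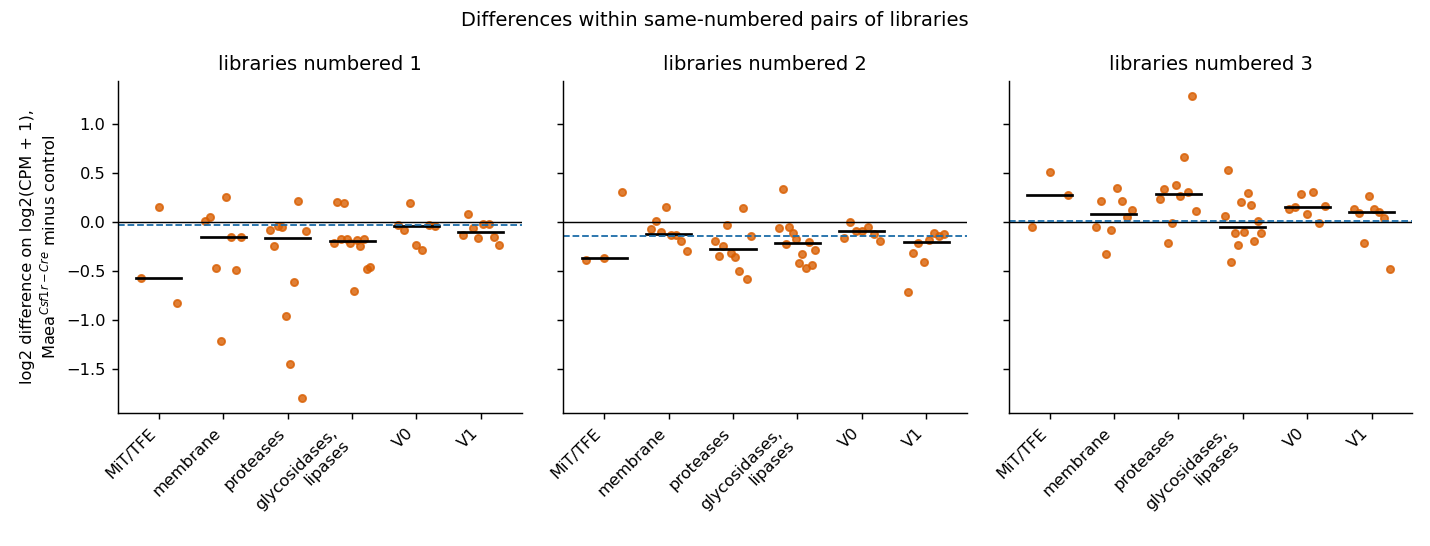
Log2 differences on log2(CPM + 1), MaeaCsf1r-Cre minus control, within each pair of libraries with the same replicate number, for the 48 genes by role (points), with the median of each role (black bars) and of all 12953 tested genes (dashed line). Most points lie below 0 for the libraries numbered 1 and 2, with 39 and 43 genes lower, and above 0 for those numbered 3, with 33 genes higher.

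The replicate number accounted for more of the variation than the group. It has more levels than the group, so part of its larger share would arise without any effect. The median share of the replicate number in the sum of squares across the 6 libraries was 62% over the 48 genes, against 58.8% over all genes. The share of the group was 8.57%, against 12.8% over all genes. The replicate share was highest for *Atp6v0b* (94.5%), *Lamp1* (92.9%) and *Ctsc* (92.2%). With the replicate block, 5 genes were lower at an unadjusted p under 0.05 (10.4% of 48), against 10.8% of all genes, and 1 was higher (*Ctsz*, 2.08%), against 3.11% of all genes. The 5 were *Cd63*, *Asah1*, *Glb1*, *Psap* and *Grn*. With the length correction added to the block, 2 remained lower at that level (*Asah1* and *Cd63*, 4.17%), against 6.48% of all genes.

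The values of the groups did not overlap for 3 genes. *Atp6v1h* was lower in every MaeaCsf1r-Cre library than in every control library (1 of 48, 2.08%), against 6.06% of all genes, and *Ctsz* and *Lamp2* were higher (2 of 48, 4.17%), against 2.49%. The separation of *Atp6v1h* was lost after rescaling by median ratios, after quantile normalization and after length correction. The count of genes lower without overlap depended on the libraries used. It was 6 without control replicate 1 (20.6% of all genes), 3 without control replicate 2 (8.86%), 3 without control replicate 3 (9.53%), 2 without MaeaCsf1r-Cre replicate 1 (9.49%) and 12 without MaeaCsf1r-Cre replicate 3 (17.8%). It was 7 without both libraries numbered 1 (24.6% of all genes) and 15 without both numbered 3 (22.0%). The count of genes higher without overlap was 4 without MaeaCsf1r-Cre replicate 2 (9.79% of all genes).

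*Tfeb*, *Tfe3* and *Mitf* encode the MiT/TFE transcription factors among the 48 genes. *Tfeb* (chr17:47737030-47792419) stood at 8.55, 12.2 and 12.9 CPM in control replicates 1, 2 and 3 and at 5.43, 9.10 and 12.4 CPM in MaeaCsf1r-Cre replicates 1, 2 and 3. It was lower in each same-numbered pair, but the groups overlapped widely, and the log2 fold change was -0.34 with a standard error of 0.30 (limma adjusted p = 0.967, and 0.431 with the replicate block). It was -0.05 without MaeaCsf1r-Cre replicate 1 and -0.58 without MaeaCsf1r-Cre replicate 3. *Tfe3* (chrX:7762560-7775202) stood at 41.3, 34.2 and 25.9 CPM in control and at 46.1, 26.3 and 37.3 CPM in MaeaCsf1r-Cre libraries. Its log2 fold change was 0.10 (standard error 0.24, limma adjusted p = 0.977), and was -0.11 without the libraries numbered 3. *Mitf*, better known from melanocytes and mast cells, stood at 4.09, 3.21 and 2.80 CPM in control and at 1.87, 4.21 and 3.61 CPM in MaeaCsf1r-Cre libraries, a log2 fold change of -0.08 (standard error 0.28) that was 0.09 after quantile normalization and 0.08 after length correction. Per kilobase of transcript, the control level was 10.3 CPM for *Tfe3*, 4.88 for *Tfeb* and 0.69 for *Mitf*, the lowest of the 48 genes.

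Among the membrane proteins, *Lamp1* and *Lamp2* encode the major glycoproteins of the lysosomal membrane. *Lamp1* stood at 279, 256 and 294 CPM in control and at 281, 244 and 284 CPM in MaeaCsf1r-Cre replicates 1, 2 and 3. The libraries followed their number and not their group, with a log2 fold change of -0.04 (standard error 0.12) that was 0.03 after rescaling by median ratios and 0.05 after length correction. *Lamp2* (chrX:38401357-38456454), needed for chaperone-mediated autophagy in its A isoform, stood at 62.6, 64.8 and 64.6 CPM in control and at 65.0, 65.5 and 75.3 CPM in MaeaCsf1r-Cre libraries. The groups did not overlap, but the lowest MaeaCsf1r-Cre library was above the highest control library by less than the spread between control libraries, and the log2 fold change of 0.09 (standard error 0.12, limma adjusted p = 0.967) was 0.03 without MaeaCsf1r-Cre replicate 3. The table does not separate isoforms.

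*Cd63*, a tetraspanin of late endosomes, stood at 76.7, 126 and 123 CPM in control and at 55.1, 117 and 98.3 CPM in MaeaCsf1r-Cre libraries. It was lower in each same-numbered pair by a log2 fold change of -0.30 (standard error 0.30, limma adjusted p = 0.967, and 0.28 with the replicate block), a difference that was 0.02 without MaeaCsf1r-Cre replicate 1. The pseudogene *Cd63-ps* may share its reads. *Cd68*, a LAMP family member most abundant in macrophages, stood at 6.79, 5.58 and 6.37 CPM in control and at 2.36, 6.30 and 5.95 CPM in MaeaCsf1r-Cre libraries. Only MaeaCsf1r-Cre replicate 1 was low, and the log2 fold change of -0.38 (standard error 0.32) became 0.03 without the libraries numbered 1. *Npc1*, which exports cholesterol from the lysosome, stood at 19.0, 25.0 and 20.6 CPM in control and at 13.3, 21.7 and 21.4 CPM in MaeaCsf1r-Cre libraries, a log2 fold change of -0.21 (standard error 0.22) that was 0.01 without MaeaCsf1r-Cre replicate 1. Its partner *Npc2* (-0.11), the calcium channel gene *Mcoln1* (-0.02) and *Scarb2* (0.15), which carries β-glucocerebrosidase to the lysosome, differed by less than their standard errors of 0.13, 0.16 and 0.17.

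Among the proteases, *Ctsd*, the main aspartic protease of lysosomes, had the highest level per length of all 48 genes, with 136 CPM per kilobase in control HSCs. It varied little, from 282 to 294 CPM in control and from 276 to 290 CPM in MaeaCsf1r-Cre libraries. Its log2 fold change was -0.03 (standard error 0.10, 95% interval -0.26 to 0.20), which was 0.03 after rescaling by median ratios and 0.05 after length correction. It shares 34.4% of its exon bases with *Gm49369* on the same strand in GENCODE. *Gm49369* has no row among the deposited values, so how reads in the shared bases were assigned is not known. *Ctsz* (chr2:174427493-174439039), a carboxypeptidase, stood at 114, 106 and 102 CPM in control and at 132, 117 and 126 CPM in MaeaCsf1r-Cre replicates 1, 2 and 3. It was higher in every MaeaCsf1r-Cre library, 1.16-fold on the log2(CPM + 1) scale, a log2 fold change of 0.22 (standard error 0.11, limma adjusted p = 0.967, and 0.344 with the replicate block). Its exons overlap those of *Nelfcd* on the other strand by 10 bases (0.694% of its exons), and the library kit does not mark strand. *Ctsc*, which activates granule serine proteases, stood at 50.4, 93.2 and 79.1 CPM in control and at 49.0, 78.6 and 68.0 CPM in MaeaCsf1r-Cre libraries, with replicate 1 lowest in both groups and a log2 fold change of -0.17 (standard error 0.26) that was 0.02 without control replicate 2 or MaeaCsf1r-Cre replicate 1 and -0.42 without control replicate 1.

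The cysteine proteases *Lgmn*, *Ctsl* and *Ctsb* had the same highest library, and *Lgmn* and *Ctsb* are named here after their values were seen. *Lgmn* (chr12:102394084-102439813), which encodes legumain, the asparaginyl endopeptidase, stood at 7.40, 1.79 and 16.6 CPM in control and at 1.43, 0.862 and 41.8 CPM in MaeaCsf1r-Cre libraries. *Ctsl* stood at 83.8, 38.9 and 88.7 CPM in control and at 30.1, 30.1 and 107 CPM in MaeaCsf1r-Cre libraries. *Ctsb* stood at 214, 222 and 234 CPM in control and at 181, 174 and 295 CPM in MaeaCsf1r-Cre libraries. MaeaCsf1r-Cre replicate 3 was the highest of all 6 libraries for each of them, and MaeaCsf1r-Cre replicates 1 and 2 were below every control library. The log2 fold changes were -0.36 for *Lgmn* (standard error 1.18), -0.51 for *Ctsl* (0.51) and -0.09 for *Ctsb* (0.20), and that of *Ctsl* was -1.11 without MaeaCsf1r-Cre replicate 3 and -0.05 without the libraries numbered 1. *Ctsb* shares 12.8% of its exon bases with *Fdft1* on the other strand, which had a mean of 22.5 CPM. *Ctsl* shares 26.8% with the antisense transcript *Gm47123*, which has no row among the deposited values.

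Genes of macrophages and of endothelium varied over the same libraries. Of the 20 macrophage genes 12 were expressed highly enough to be tested. The mean was lower in MaeaCsf1r-Cre HSCs for 11 of them (91.7%, against 60.9% of all genes), with a median log2 fold change of -1.16. In limma 7 had an unadjusted p under 0.05 (58.3%, against 3.99% of all genes). An adjusted p of 0.05 was passed by 0 of them (smallest 0.194, and 0.0616 with the block). For *Lgmn* and *Ctsl*, control replicate 2 was the lowest control and MaeaCsf1r-Cre replicate 3 the highest of its group. This order was chosen after the values were seen, and *Ctsb* did not have it, since its lowest control was replicate 1. It was found for 8 of the 12 tested macrophage genes and 2 of 3 tested stromal and endothelial genes (*Kdr* and *Cdh5*). Of the 48 lysosomal genes 10 had it (20.8%), against 8.84% of all genes. These 10 include *Lgmn* and *Ctsl*, so their share is no independent check. *Vcam1*, an adhesion molecule of marrow macrophages and stroma, stood at 28.5, 2.6 and 26.7 CPM in control and at 0.525, 0 and 30 CPM in MaeaCsf1r-Cre replicates 1, 2 and 3, and *Cdh5*, an endothelial cadherin, at 5.82, 0.278 and 13 CPM and at 0.624, 0.566 and 22.1 CPM. *C1qb*, a complement gene of macrophages and also among those 8 genes, was low in all 3 MaeaCsf1r-Cre libraries. It stood at 8.98, 3.79 and 5.37 CPM in control and at 0.0328, 0 and 0.474 CPM in MaeaCsf1r-Cre libraries. *C1qa*, *C1qc* and *Hmox1*, likewise among the 8, were also lower in every MaeaCsf1r-Cre library than in every control library. *Timd4* was listed at 0 in 4 of the 6 libraries, control replicate 2 among them, and *Marco* in 5. These genes were singled out after their values were seen. Their part in the values of the proteases was not tested, and in bulk RNA fewer cells of a type and less RNA per cell cannot be told apart.

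**Figure D3:**
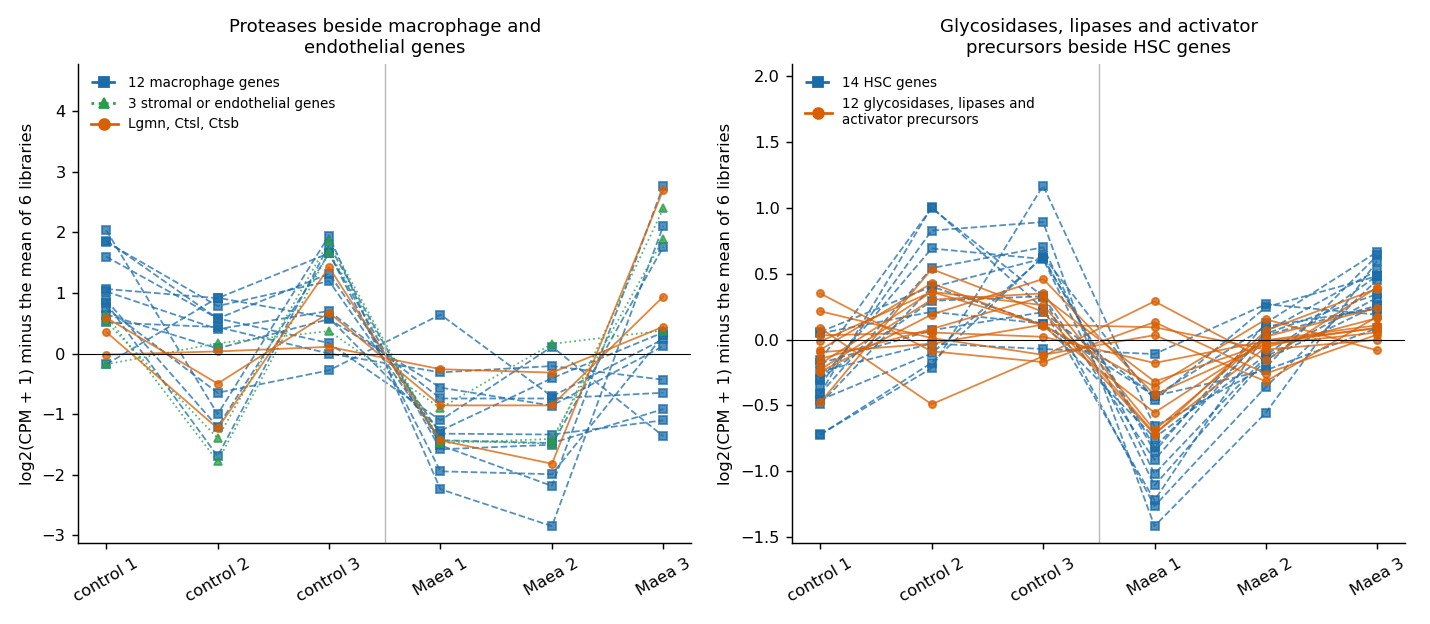
Log2(CPM + 1) minus the mean of the 6 libraries for each gene, in 3 control and 3 MaeaCsf1r-Cre libraries. Left, *Lgmn*, *Ctsl* and *Ctsb* (circles) beside the 12 tested macrophage genes (squares) and 3 stromal or endothelial genes (triangles), with several of each high in MaeaCsf1r-Cre replicate 3. Right, the 12 glycosidases, lipases and activator precursors (circles) beside the 14 HSC genes (squares), with the HSC genes lowest in replicate 1 of each group, as 7 of the 12 lysosomal genes are.

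The remaining proteases had log2 fold changes from -0.29 to -0.01. They were *Ctsh* (-0.29, standard error 0.51), *Ctss* (-0.15, 0.38), *Tpp1* (-0.04, 0.12), a tripeptidyl peptidase, and *Ctsa* (-0.01, 0.13), which protects neuraminidase and β-galactosidase. *Ctsh* was the least even, from 3.82 to 7.54 CPM in control and from 1.49 to 10.1 CPM in MaeaCsf1r-Cre libraries.

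The glycosidases, lipases and activator precursors had the lowest median of the 6 roles (-0.18), with 10 of 12 lower in mean (83.3%, against 60.9% of all genes). *Asah1* (chr8:41340197-41374773), the acid ceramidase, stood at 45.6, 59.5 and 55.4 CPM in control and at 27.7, 44.2 and 51.7 CPM in MaeaCsf1r-Cre replicates 1, 2 and 3. It was lower in each same-numbered pair, though MaeaCsf1r-Cre replicate 3 lay within the control range, with a log2 fold change of -0.41 (standard error 0.23, limma adjusted p = 0.967, and 0.279 with the replicate block). It was -0.15 without MaeaCsf1r-Cre replicate 1 and -0.59 without MaeaCsf1r-Cre replicate 3. *Psap*, the precursor of the saposins that present sphingolipids to their hydrolases, was the most abundant gene of this role, with 103 CPM per kilobase in control. It stood at 230, 327 and 261 CPM in control and at 165, 242 and 262 CPM in MaeaCsf1r-Cre libraries, a log2 fold change of -0.30 (standard error 0.21, limma adjusted p = 0.967, and 0.322 with the block), with nearly equal levels in the libraries numbered 3. It was -0.10 without MaeaCsf1r-Cre replicate 1 and -0.45 without the libraries numbered 3. *Gla*, the α-galactosidase that is missing in Fabry disease, was higher instead, at 8.19, 5.15 and 6.92 CPM in control and at 9.57, 6.75 and 10.4 CPM in MaeaCsf1r-Cre libraries. It was higher in each pair but the groups overlapped, and the log2 fold change was 0.35 (standard error 0.24, limma adjusted p = 0.967, and 0.399 with the block), or 0.20 without control replicate 2.

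*Glb1* (β-galactosidase) and *Grn* (progranulin, the precursor of granulins) were among the 5 genes lower at an unadjusted p under 0.05 with the block, and are named after their values were seen. *Glb1* stood at 38.5, 52.4 and 63.4 CPM in control and at 34, 44.6 and 47.6 CPM in MaeaCsf1r-Cre libraries, and *Grn* at 81.4, 118 and 122 CPM and at 58.9, 97.0 and 113 CPM. Both were lower in each pair, with limma adjusted p = 0.967 for each, and 0.332 and 0.296 with the block. This role held 4 of those 5 genes (4 of 12, 33.3%), against 10.8% of all genes, and 1 of 12 with the length correction added, against 6.48% of all genes. Of its 12 genes 7 had their lowest value in replicate 1 in both groups (58.3%), against 15 of all 48 (31.2%) and 28.7% of all genes. The reverse, a highest value in replicate 1 in both groups, was found for 9 of 48 (18.8%), against 23.5% of all genes, among them 5 V-ATPase genes (*Atp6v0a1*, *Atp6v0e*, *Atp6v1c1*, *Atp6v1e1* and *Atp6v1g1*). The HSC genes were lower in the same libraries: 12 of the 14 had a lower mean in MaeaCsf1r-Cre HSCs (60.9% of all genes did), their median log2 fold change was -0.30, and 7 of 14 were lower at an unadjusted p under 0.05 with the block (10.8% of all genes), though 0 passed an adjusted p of 0.05 in limma with or without it. Whether the composition of the sorted cells had a part in the values of these hydrolases was not tested. The remaining 7 genes of the role had log2 fold changes from -0.19 (*Man2b1*, an α-mannosidase, standard error 0.19) to 0.01 (*Gusb*, β-glucuronidase, 0.12).

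The V-ATPase genes differed little between the groups, though some varied between libraries. *Atp6v0e* stood at 185, 116 and 119 CPM in control and at 152, 112 and 147 CPM in MaeaCsf1r-Cre replicates 1, 2 and 3. The intervals of all 15 V-ATPase genes lay within 2-fold in either direction and those of 12 within 1.5-fold. Of all 12953 genes tested, the intervals of 10625 lay within 2-fold and those of 5986 within 1.5-fold. The log2 fold changes of the 15 genes were from -0.28 to 0.13. In the V0 sector, *Atp6v0c*, which encodes the proteolipid of the rotor ring, was the most abundant, with 96.1 CPM per kilobase in control. It stood at 111, 99.5 and 130 CPM in control and at 127, 93.1 and 159 CPM in MaeaCsf1r-Cre libraries, following the replicate number, with a log2 fold change of 0.13 (standard error 0.20) that was -0.06 without MaeaCsf1r-Cre replicate 3. Its reads can be shared with the processed pseudogenes *Atp6v0c-ps1* and *Atp6v0c-ps2*. *Atp6v0d1*, the stalk subunit, stood at 63.4, 66.3 and 73.2 CPM in control and at 53.7, 62.0 and 77.5 CPM in MaeaCsf1r-Cre libraries (log2 fold change -0.08, standard error 0.16, and 0.04 without MaeaCsf1r-Cre replicate 1). *Atp6ap1*, an assembly factor, varied from 124 to 131 CPM in control and from 114 to 130 CPM in MaeaCsf1r-Cre libraries, a log2 fold change of -0.05 (standard error 0.11) that was 0.01 after rescaling by median ratios and 0.03 after length correction. The renin receptor gene *Atp6ap2* and *Atp6v0a1*, *Atp6v0b* and *Atp6v0e* lay between -0.02 and 0.02.

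In the V1 sector the mean was lower for all 8 genes in the fit on the deposited scale, against 60.9% of all genes. *Atp6v1h* (chr1:5070018-5162529), the regulatory subunit that couples V1 to V0, stood at 35.4, 32.8 and 41.5 CPM in control and at 30, 30.1 and 29.5 CPM in MaeaCsf1r-Cre replicates 1, 2 and 3. The 3 MaeaCsf1r-Cre libraries were nearly equal and below every control library, and the log2 fold change was -0.28 (standard error 0.14, limma adjusted p = 0.967, and 0.368 with the replicate block). It ranged from -0.35 without control replicate 2 to -0.18 without control replicate 3. *Atp6v1a*, the catalytic subunit, stood at 32.5, 43.6 and 36.6 CPM in control and at 29.5, 26.3 and 40.2 CPM in MaeaCsf1r-Cre libraries, with overlap and a log2 fold change of -0.24 (standard error 0.19) that was -0.11 without MaeaCsf1r-Cre replicate 2. *Atp6v1c1*, which is released when the sectors part, stood at 57.8, 47.8 and 53.8 CPM in control and at 55.4, 41.0 and 46.2 CPM in MaeaCsf1r-Cre libraries (log2 fold change -0.16, standard error 0.15, and -0.06 without MaeaCsf1r-Cre replicate 2). *Atp6v1f* was the most abundant per length (129 CPM per kilobase in each group) and hardly differed, with a log2 fold change of -0.01 (standard error 0.11) that was 0.05 after rescaling by median ratios and 0.01 after quantile normalization. The catalytic-head partner *Atp6v1b2* (-0.04), *Atp6v1d* (-0.10), *Atp6v1e1* (-0.02) and *Atp6v1g1* (-0.08) differed by less than their standard errors of 0.13, 0.15, 0.13 and 0.11.

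**Figure D4:**
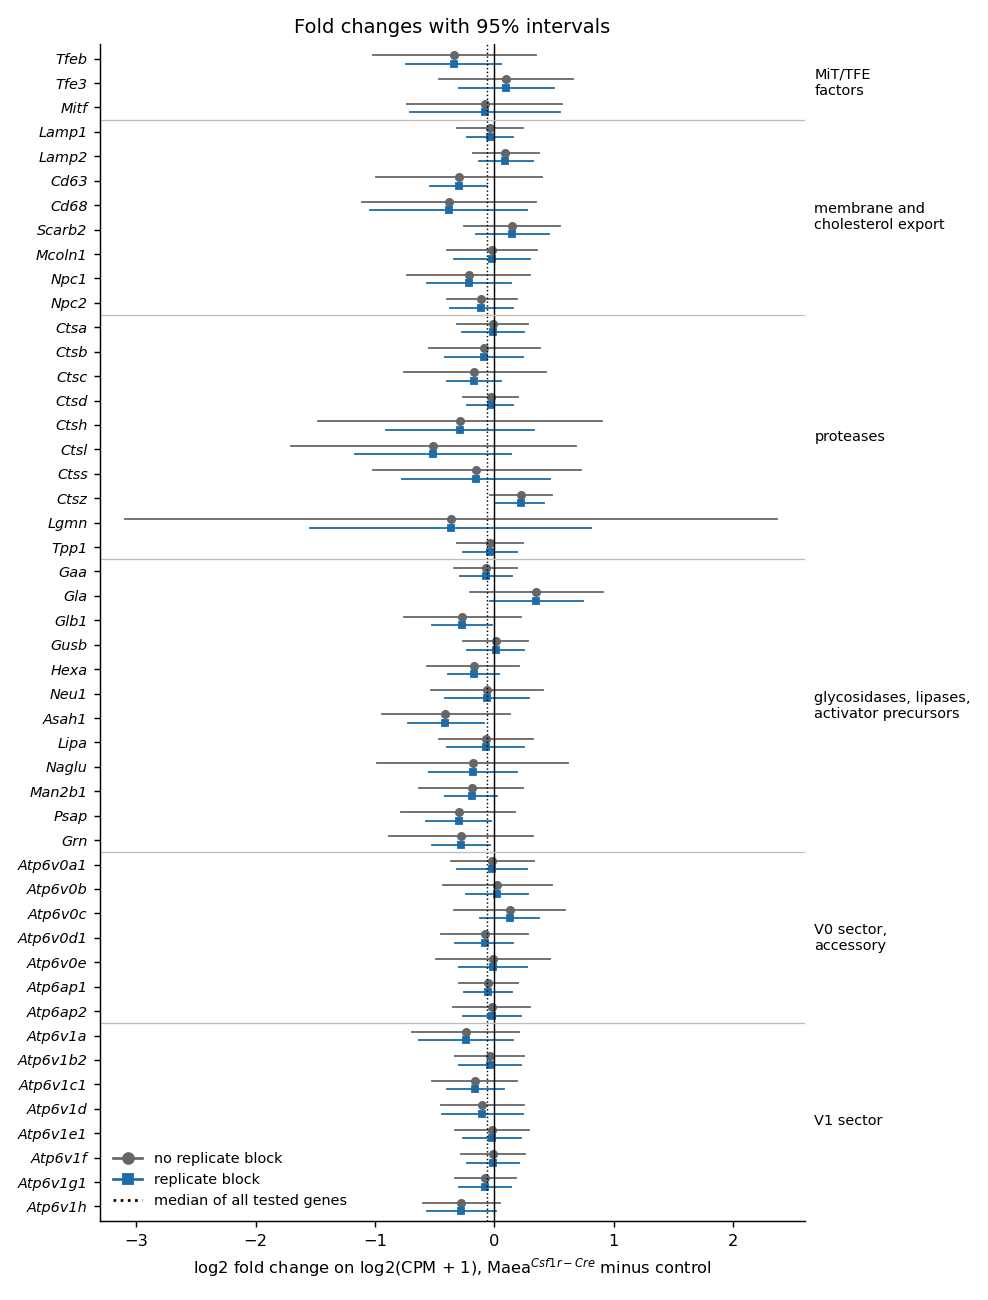
Log2 fold changes on log2(CPM + 1), MaeaCsf1r-Cre minus control (n = 3 libraries each), of the 48 genes with 95% intervals from limma without (circles) and with (squares) the replicate block; the dotted line marks the median of all tested genes, -0.06. The unblocked intervals of all 48 genes include 0, and with the block those of *Cd63*, *Asah1*, *Glb1*, *Psap*, *Grn* and *Ctsz* do not, before any adjustment for the number of genes.

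Genes with and without the promoter motif had like fold changes. Among the 40 genes with a promoter, the median log2 fold change was -0.05 for the 14 with the core and -0.07 for the others, and -0.02 for the 7 with the longer form. Over all tested genes with a promoter, the 204 with the longer form had a median of -0.04 and the others of -0.07, and 60.8% of the 204 had a lower mean, near the 60.9% of all genes. *Lamp1*, with its 4 cores, and *Gla*, with a pair of the longer form, had log2 fold changes of -0.04 and 0.35. These are descriptions with no test, and the motif says nothing here of what was bound.

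Further lysosomal genes were examined in 5 lists, and 0 of their genes passed an adjusted p of 0.05 in limma with or without the block. Of 33 other hydrolases and related proteins 32 were tested, with a median log2 fold change of -0.12. The mean was lower for 23 (71.9%), against 60.9% of all genes. *Cst3*, *Gm2a* and *Hgsnat* on this list do not encode hydrolases. The smallest p values were those of *Scpep1*, a serine carboxypeptidase (0.31, standard error 0.16), which was higher without overlap, and *Ids*, the iduronate sulfatase (-0.52, standard error 0.26). Of 21 other membrane proteins 20 were tested, with a median of -0.01 and 10 lower (50.0%, against 60.9% of all genes). *Cd164*, a sialomucin also found on haematopoietic progenitors, was lower without overlap (-0.22, standard error 0.13), and *Tmem192* was higher with overlap (0.24, standard error 0.17). Of 10 other V-ATPase genes 3 were tested (median -0.08), among them *Atp6v0a2* (-0.08, standard error 0.12) and *Atp6v1g2*, the brain form (-0.22, standard error 0.38), while *Atp6v0d2*, *Atp6v1b1*, *Atp6v1e2* and *Atp6v1g3* were listed at 0 in all 6 libraries.

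All 20 genes that sort hydrolases to the lysosome were tested (median -0.03). The mean was lower for 13 of them (65.0%, against 60.9% of all genes). *Sort1*, which encodes sortilin, a receptor that carries saposin precursor and hydrolases to the lysosome, stood at 37.5, 54.6 and 61.3 CPM in control and at 20.6, 40.3 and 36.5 CPM in MaeaCsf1r-Cre replicates 1, 2 and 3. It was lower in each same-numbered pair, with a log2 fold change of -0.67 (standard error 0.28, limma adjusted p = 0.967, and 0.167 with the block). It was the only gene of the 5 lists with an unadjusted p under 0.05 without the block, a level that 3.99% of all genes reached. *Vps18*, which encodes a tethering subunit, was lower with overlap (-0.26, standard error 0.17). A list of 16 genes held regulators of the MiT/TFE factors and *Tfec*, a further member of that family. Of these 14 were tested (median -0.01), with 8 lower in mean (57.1%, against 60.9% of all genes). *Tfec* is named after its values were seen. It stood at 5.52, 13.2 and 15.7 CPM in control and at 4.17, 9.31 and 10 CPM in MaeaCsf1r-Cre libraries. Its log2 fold change was -0.46 (standard error 0.42, limma adjusted p = 0.967, and 0.28 with the block). *Fnip1*, the folliculin partner, was lower without overlap (-0.30, standard error 0.17), and *Lamtor4*, a subunit of the Ragulator that docks mTORC1, was higher with overlap (0.18, standard error 0.16).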

How the data were processed

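RNA of 6 libraries (3 control, 3 MaeaCsf1r-Cre) was compared. Per the labels and methods, the authors used SMART-Seq v4 and Nextera XT, aligned reads to mm10 with STAR 2.5.3a, normalised in Partek, and deposited CPM with 0.0001 added to every value, which was subtracted here. Genes that reached 1 CPM in 3 or more libraries (12953; 2 duplicated date-like symbols were left out) were tested on log2(CPM + 1) with limma 3.58.1 (R 4.3.3, mean-variance trend, two-sided), with Benjamini-Hochberg adjustment over all of them. Whole reads were not recovered, since 69.5 to 72.1% of low values lay within 0.02 of a whole read, so no test for counts was used. A fold change on this scale understates that of low genes. Deviations from the group mean correlated between libraries of the same number (Pearson's r across genes 0.627, 0.523 and 0.397, against -0.459 to -0.0539 otherwise), and the replicate number was then fitted as a block. Coordinates are of GRCm38 (GENCODE), transcript lengths are medians of principal transcripts, and promoters came from RefSeq. The gene lists and the rule for named genes (the 3 MiT/TFE factors and, in each role, the 3 smallest p values, the most abundant per length and any gene without overlap; in other lists the 2 smallest p values) were written with earlier results of these data known. The procedure was tested on simulated data without shared replicate numbers. At an adjusted p under 0.05 in limma it recovered 100 of 200 genes changed 2-fold and 172 of 200 changed 4-fold. False calls numbered 4 and 12, and 0 where no gene was changed. Many 2-fold changes would thus be missed. Alternatives were another pseudocount, other filters, rescaling, quantile normalization, no trend, length correction (loess, span 0.5), the block and each library left out. Leaving out both libraries numbered 1 or 3 was added after seeing the data. Python 3.11.15 was used, with numpy 2.4.6, pandas 2.3.3, scipy 1.17.1 and matplotlib 3.10.9.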

Additional observations from a re-analysis of the deposited data

How the results depend on the processing

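No lysosomal gene of the 48 passed an adjusted p of 0.05 under any alternative run. The number of all genes past that threshold was 1, and it was 10 with no filter, 0 with a CPM of at least 10, 15 with length correction and the replicate block, and 0 to 3 when single libraries or same-numbered pairs were left out. The replicate block left it at 1 and changed no other call. The median of the 48 genes was 0.02 with length correction, alone or with the block, and -0.15 to -0.01 when libraries were left out. Log2 fold changes and transcript length were related across genes (Spearman's rho -0.301, 12449 genes, which are not independent). The count of genes lower without overlap, 1, was 0 after median ratios, after quantile normalization and after length correction with or without the block, and 1 to 15 when libraries were left out. The count higher, 2, was 1 after quantile normalization and 2 to 4 when libraries were left out. Small fold changes turned direction, and the cause was not tested. After median ratios they were 0.03 for *Lamp1*, 0.03 for *Ctsd*, 0.01 for *Atp6ap1* and 0.05 for *Atp6v1f*. After quantile normalization they were 0.09 for *Mitf* and 0.01 for *Atp6v1f*, and after length correction, with or without the block, 0.08 for *Mitf*, 0.05 for *Lamp1*, 0.05 for *Ctsd* and 0.03 for *Atp6ap1*. When libraries were left out, values that turned ranged from -0.26 to 0.29 for *Mitf*, -0.11 to 0.31 for *Tfe3*, -0.42 to 0.02 for *Ctsc*, -0.09 to 0.03 for *Lamp1*, -0.53 to 0.02 for *Cd63*, -0.34 to 0.01 for *Npc1*, -0.58 to 0.03 for *Cd68*, -0.22 to 0.04 for *Atp6v0d1*, -0.06 to 0.33 for *Atp6v0c* and -0.07 to 0.05 for *Atp6v1f*. The medians by role ranged from -0.26 to 0.07 for the MiT/TFE factors, -0.18 to 0.01 for the membrane proteins, -0.27 to 0.02 for the proteases, -0.31 to -0.06 for the glycosidases, lipases and activator precursors, -0.09 to 0.10 for the V0 sector and -0.14 to -0.04 for the V1 sector.

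With 3 libraries a group and 2 mice in each, the intervals of the 6 least even genes allow a 2-fold difference. The deeper MaeaCsf1r-Cre libraries and the group cannot be told apart. RNA levels do not measure lysosomal mass, acidity or enzyme activity.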

Other observations

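*Ctse*, an aspartic protease that red cell precursors also make, is on the list of 33 other hydrolases and related proteins. It was singled out after its values were seen. *Ctse* stood at 357, 139 and 142 CPM in control and at 402, 189 and 315 CPM in MaeaCsf1r-Cre replicates 1, 2 and 3, higher in each same-numbered pair (log2 fold change 0.58, standard error 0.40, limma adjusted p = 0.967, or 0.265 once the replicate number was a block). The erythroid transcription factor gene *Klf1* stood at 319, 119 and 94.0 CPM in control and at 331, 122 and 202 CPM in MaeaCsf1r-Cre libraries, so both were highest in replicate 1 of each group. Of the 7 erythroid genes tested, *Klf1* and *Epor* had that order and 5 did not, among them the globin gene *Hba-a1* at 30.5, 11.3 and 26 CPM in control and 10.5, 17.6 and 32.5 CPM in MaeaCsf1r-Cre libraries. *Slc11a1*, a metal transporter of phagocyte lysosomes, was too low to be tested and stood at 1, 0.278 and 1.29 CPM in control, against a value of 0 in MaeaCsf1r-Cre replicate 1 and 0.0679 and 0.0902 CPM in replicates 2 and 3.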
